A study of Mus musculus with 8 samples.

Results

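The lungs of mice 7 days after pneumonectomy (PNY) were compared with those of mice 7 days after a sham operation (SHAM), as log2 expression on 1 array each, so that this comparison takes 2 of the 8 arrays in the series. All animals were adult C57BL/6 females of 10 to 12 weeks. The PNY animals had the left lung tied off at the hilum and removed, while the SHAM animals had the chest opened on the same side and closed again with both lungs in place. The lung vessels were perfused at harvest, and equal amounts of tissue from 8 mice were pooled for each array. The tissue on the PNY array was the lung left after surgery. Each value is 1 reading of a pool of 8 mice and not a mean of 8 separate readings. Whether the left lung of the SHAM animals entered their pools is not stated. The other 6 arrays, from PNY and SHAM animals at 6 hours, 1 day and 3 days, were used to place the 7-day values. With 1 array a side there was no replicate, and a difference below is PNY minus SHAM on the log2 scale, with no test. Differences of at least 1.5-fold (0.585 on the log2 scale) are counted, and "higher" and "lower" refer to these arrays.

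After the loss of a lung, the lung that remains in a rodent grows to make up much of the lost volume. In this compensatory growth, cells of the alveolar wall, its capillaries and its mesenchyme divide, and new matrix with collagen and elastin is laid down as septa extend. Cells that divide pass through S phase, in which DNA is copied by the replication machinery, and then through G2 and mitosis, in which cyclin-dependent kinase 1 and its cyclins, the spindle, the kinetochores and the cytokinesis proteins share the copies out. Genes of the S phase machinery are classically controlled through E2F sites, and the later genes of G2 and mitosis through the cell cycle homology region, a short promoter element that is often found with CCAAT boxes.

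Of 18193 genes, 360 (1.98%) exceeded SHAM in PNY by 1.5-fold or more at 7 days and 269 (1.48%) lay as far below it. At 2-fold the counts were 120 and 56. Among the 12151 genes above the median level of all probe sets (5.92) the counts were 188 higher (1.55%) and 206 lower (1.7%). Of the 15 of these genes furthest above SHAM outside the striated muscle lists, 12 belong to the mitosis and G2/M list. Of the 15 furthest below, 5 belong to the serosal macrophage list, 2 to the neutrophil list and 2 to the immunoglobulin list. The lung identity genes that were checked differed little between the arrays, by most in Pecam1 of endothelium (11.39 in PNY and 11.14 in SHAM). Sftpc, the surfactant protein C gene of alveolar type II cells, was 14.69 in PNY and 14.66 in SHAM, Scgb1a1 of club cells was 14.77 in both, and Ager of alveolar type I cells was 14.03 and 13.85.

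The gene lists of cell types and pathways were summarised by their medians, from the same 7-day differences. Of 53 lists, 35 had a median 7-day difference within 0.2 of 0, against a median of -0.0013 over all genes. The 9 lists with a median of 0.3 or more were mitosis and G2/M, S phase, fibrillar collagens, elastic fibre, matricellular proteins, basement membrane, goblet cells and the pair of striated muscle lists. The 6 lists with a median of -0.3 or less were serosal cavity macrophages, neutrophils, platelets, B cells, mature T cells and NK cells. In whole tissue, fewer cells of a type and less RNA per cell cannot be told apart.

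**Figure D1:**
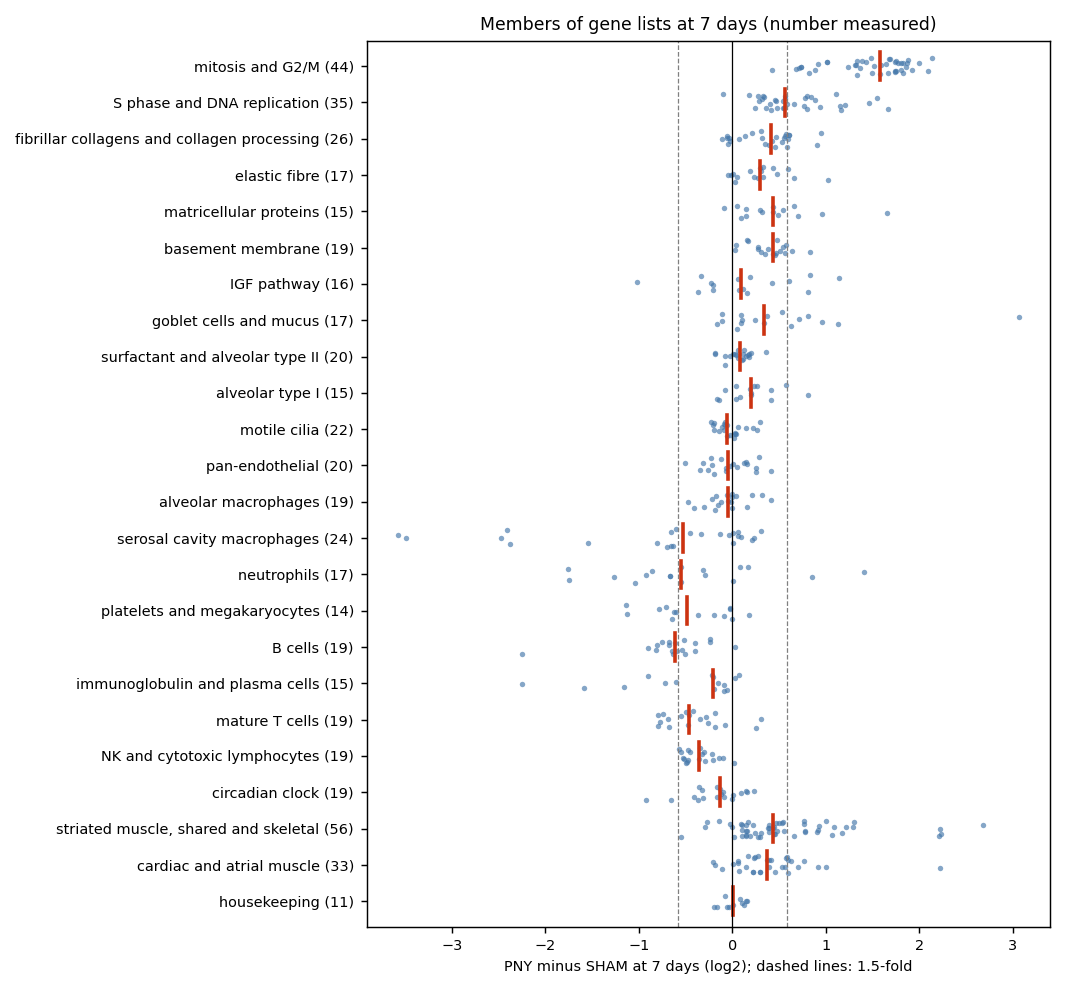
PNY minus SHAM at 7 days (log2) for every measured member of 24 gene lists, 1 point a gene with the number measured in brackets, a red bar at the list median and dashed lines at 1.5-fold. The mitosis points lie almost wholly to the right of the upper line around a median of 1.58, the housekeeping points lie around 0.01, and the serosal macrophage points reach down to -3.58.

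The mitosis and G2/M list had the largest median of the 53 lists. Of its 44 measured members 43 were at least 1.5-fold higher in PNY at 7 days, beside 1.98% of all genes, and none was lower. The member below the line was the kinesin Kif15, at 0.42. The median difference of the list was 1.58, after 0.95 at 3 days, 0.25 at 1 day and 0.15 at 6 hours. On the PNY array of 7 days 43 of the 44 had their highest value of all 8 arrays, so the difference lay in PNY and not in a low SHAM array. The mean level of the list was 7.93 in PNY and 6.47 in SHAM at 7 days, and between 6.05 and 7.12 on the other 6 arrays.

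The members were listed for their function, and many of their promoters hold the same short element. Promoter sequences (250 bases before to 50 bases after each annotated start, RefSeq, build GRCm38.p6) were found for 37 of the 44 members. The core of the cell cycle homology region, TTTGAA on either strand, was present in 29 of these 37 (78.4%), in 15.7% of the 14452 genes of the arrays that have a promoter in the table, and in 20.2% of all 27025 genes of the table. In the S phase list it was in 3 of 28 (10.7%), and in none of 17 circadian clock genes. Each motif was searched alone, matches that overlap were all kept, and a gene was counted if any of its promoters held a match. The sequences below belong to the 4 mitosis members with a single listed promoter and a match that were furthest above SHAM. Each of the 4 holds the element within 50 bases of the start. Capitals mark TTTGAA or its reverse complement.
Cenpf: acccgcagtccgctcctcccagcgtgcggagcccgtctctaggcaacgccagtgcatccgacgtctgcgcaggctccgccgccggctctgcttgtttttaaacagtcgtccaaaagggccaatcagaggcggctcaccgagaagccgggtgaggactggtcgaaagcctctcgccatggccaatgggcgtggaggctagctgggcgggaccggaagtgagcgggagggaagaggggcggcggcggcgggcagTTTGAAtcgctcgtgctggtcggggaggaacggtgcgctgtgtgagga
Top2a: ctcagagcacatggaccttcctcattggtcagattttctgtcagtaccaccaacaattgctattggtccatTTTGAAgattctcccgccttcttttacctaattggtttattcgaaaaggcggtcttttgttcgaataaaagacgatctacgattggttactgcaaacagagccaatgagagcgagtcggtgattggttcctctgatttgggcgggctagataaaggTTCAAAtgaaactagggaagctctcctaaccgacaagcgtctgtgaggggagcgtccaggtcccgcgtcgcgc
Cdk1: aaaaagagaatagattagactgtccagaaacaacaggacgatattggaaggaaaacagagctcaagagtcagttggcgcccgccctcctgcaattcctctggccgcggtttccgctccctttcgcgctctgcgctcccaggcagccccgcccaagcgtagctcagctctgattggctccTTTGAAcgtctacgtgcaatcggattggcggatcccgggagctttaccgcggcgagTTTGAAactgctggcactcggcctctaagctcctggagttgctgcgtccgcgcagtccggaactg
Cdc20: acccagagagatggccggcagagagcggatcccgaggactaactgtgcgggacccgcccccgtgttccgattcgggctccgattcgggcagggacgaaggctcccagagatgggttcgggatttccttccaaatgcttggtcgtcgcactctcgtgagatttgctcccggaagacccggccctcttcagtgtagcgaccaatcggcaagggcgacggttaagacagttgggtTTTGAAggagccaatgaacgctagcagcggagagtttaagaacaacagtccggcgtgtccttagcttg
The Cenpf promoter lies at chr1:189688037-189688336, that of Top2a at chr11:99024140-99024439, that of Cdk1 at chr10:69352863-69353162 and that of Cdc20 at chr4:118437294-118437593, all on the minus strand. Counted from the start of transcription, the match begins at base 3 in Cenpf, at -23 in Top2a (with a further one at -179), at -15 in Cdk1 (with a further one at -71) and at -18 in Cdc20.

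The matches of the mitosis promoters also lay close to the start. Of the 40 matches in the mitosis promoters 31 (77.5%) began within 50 bases of the start, beside 25.3% of the 6737 matches in all promoters of the table. CCAAT was in 27 of the 37 mitosis promoters (73.0%), in 60.7% of the S phase promoters, in 76.5% of the clock promoters and in 41.1% of all genes of the table, so it did not single out the mitosis list. The 29 members with a TTTGAA match had a median difference of 1.65 at 7 days, and the 8 members without one 1.36. Their ranges overlapped, from 0.42 to 2.13 with a match and from 0.68 to 1.82 without. The 7 members with no promoter in the table had a median of 1.68. These groups were not tested against each other. A match is a run of letters and not a shown binding site.

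**Figure D2:**
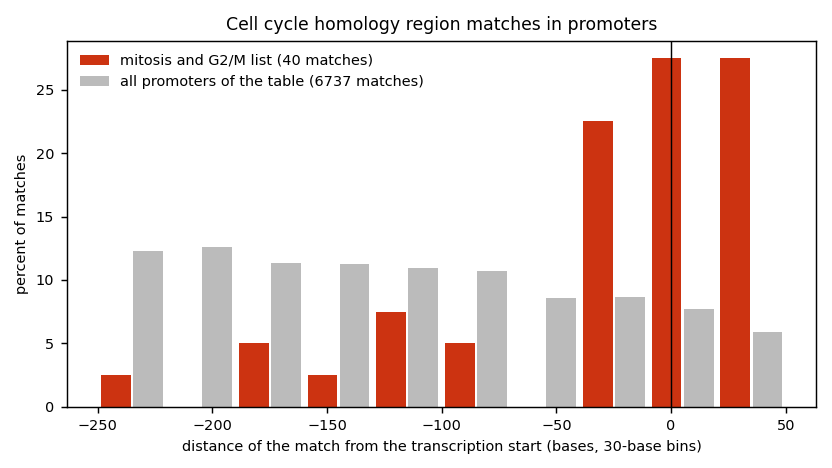
Distance from the transcription start at which matches to the cell cycle homology region begin, in 30-base bins, as percent of the 40 matches in promoters of the mitosis and G2/M list (red) and of the 6737 matches in all promoters (grey). Of the red matches 77.5% begin within 50 bases of the start, while the grey matches are spread over the whole window.

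Regulators and structural proteins of mitosis were higher in PNY alike. Cdk1, the kinase that drives entry into mitosis, was 9.38 in PNY and 7.52 in SHAM at 7 days. Its values were 8.51 and 7.30 at 3 days, 7.41 and 7.11 at 1 day, and 7.33 and 7.02 at 6 hours. The PNY value of 7 days was above all others, and the SHAM values of the 4 times lay between 7.02 and 7.52. Ccna2, a cyclin partner of Cdk1, was 9.33 against 7.59, and Foxm1, a transcription factor of G2 genes, 6.98 against 6.10. Foxm1 has 3 further probe sets, with differences from -0.01 to 1.58, of which 1 is past 1.5-fold. Birc5 (survivin), a subunit of the chromosomal passenger complex, was 8.64 against 7.14. Mki67, the Ki-67 antigen of cycling cells, was 9.04 against 7.26, after 8.02 against 6.65 at 3 days.

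Among the proteins that open and split the chromosomes, Top2a, the topoisomerase that untangles DNA before segregation, was 9.13 in PNY and 7.25 in SHAM. Cenpf, a kinetochore protein, was 7.83 and 5.69, Nuf2 of the kinetochore Ndc80 complex was 7.70 and 5.87, and Spc25 of the same complex 8.45 and 6.71. Cdc20 and Ube2c, which turn on the anaphase-promoting complex and feed it ubiquitin, were 10.16 and 8.33, and 9.09 and 7.34. The differences of these genes lay between 1.74 and 2.13 on the log2 scale. Prc1, Ect2 and Cep55, which build the midzone and carry out cytokinesis, differed by 1.92, 1.86 and 1.80, and Aspm of the spindle pole by 1.75. Pbk, a mitotic kinase, differed by 2.10, Tpx2, a spindle assembly factor, by 2.00, and Pimreg and Iqgap3, outside the list, by 2.03 and 2.04. Iqgap3 and Spc25 each have a further probe set at differences of 0.28 and 0.12, with mean levels of 4.55 and 4.27 against 6.50 and 6.80 for the brighter one.

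Part of the S phase list was higher too. Of its 35 members 16 were at least 1.5-fold higher and none lower, and the median was 0.56 at 7 days after 0.55 at 3 days. The S phase median thus was about the same at 3 and 7 days, and the mitosis median was larger at 7 days. The difference between the lists was not tested. Its members furthest above SHAM were Exo1, an exonuclease of DNA repair and replication (1.66), Ccne2, the cyclin of S phase entry (1.55), Dtl, which marks replication factors for destruction (1.46), Rrm2, the small subunit of ribonucleotide reductase (1.20), Tk1, thymidine kinase (1.16), and Hells, a chromatin remodeller (1.15). Hells has 2 further probe sets, at differences of -0.13 and 0.41. The helicase and clamp genes differed by less, with Mcm2 at 0.88 and Pcna at 0.33.

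Dtl was 6.75 in PNY and 5.29 in SHAM at 7 days, 6.25 and 5.37 at 3 days, 5.64 and 5.48 at 1 day, and 5.14 and 4.96 at 6 hours. Of the 28 S phase members with a promoter 13 (46.4%) held 1 of the E2F sites TTTCCCGC, TTTGGCGC or TTTCGCGC on either strand, beside 10.8% of the mitosis promoters, 3.25% of the genes of the arrays with a promoter and 2.12% of all genes of the table. The sequences below are the promoters of the 2 S phase members furthest above SHAM among those with such a site and a single listed promoter, with the site in capitals.
Dtl: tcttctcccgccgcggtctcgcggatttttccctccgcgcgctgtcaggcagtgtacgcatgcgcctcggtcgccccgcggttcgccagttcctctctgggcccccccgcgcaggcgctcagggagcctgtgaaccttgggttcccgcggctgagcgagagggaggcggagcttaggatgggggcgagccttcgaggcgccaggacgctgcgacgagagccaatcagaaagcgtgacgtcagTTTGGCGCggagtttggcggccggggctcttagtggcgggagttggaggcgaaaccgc
Hells: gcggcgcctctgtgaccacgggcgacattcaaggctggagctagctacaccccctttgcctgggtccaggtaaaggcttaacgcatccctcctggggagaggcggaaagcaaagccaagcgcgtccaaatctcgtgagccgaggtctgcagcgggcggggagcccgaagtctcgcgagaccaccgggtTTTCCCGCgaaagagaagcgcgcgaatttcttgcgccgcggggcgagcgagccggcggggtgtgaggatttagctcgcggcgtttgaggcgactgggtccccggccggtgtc
The Dtl promoter lies at chr1:191575495-191575794 on the minus strand and that of Hells at chr19:38930740-38931039 on the plus strand, and the site begins at -8 and at -62. The shares of these sites in the S phase and mitosis lists were not tested against each other. Of the genes of the DNA damage and p53 list, Rad51ap1 (1.52), Brca1 (1.16) and Chek1 (0.86), which serve repair and checkpoints in S phase, were the 3 of 18 at least 1.5-fold higher. Chek1 has 4 further probe sets, with differences from -0.11 to 1.07, of which 2 are above 0 and 1 is past 1.5-fold. The median of the DNA damage and p53 list was 0.04. None of 15 inhibitors and quiescence genes differed by 1.5-fold.

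**Figure D3:**
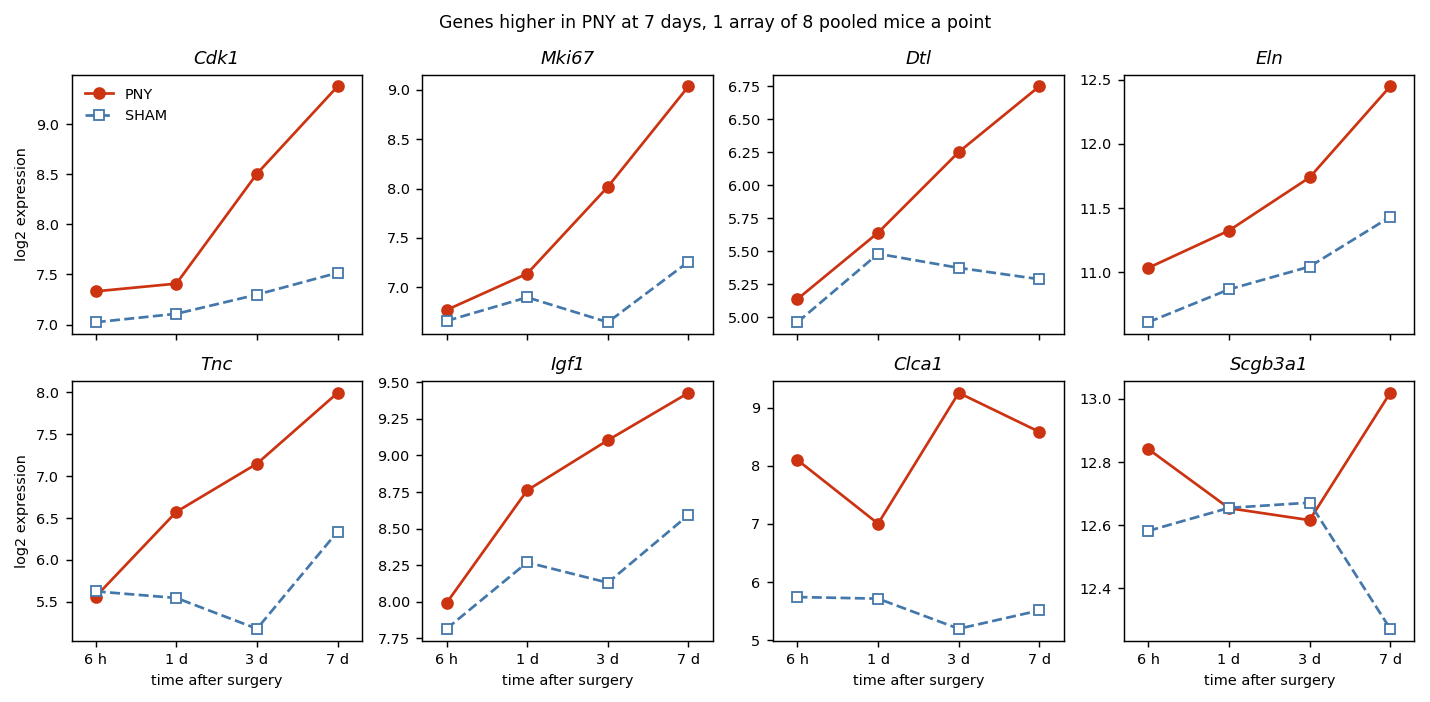
log2 expression of 8 genes that were higher in PNY at 7 days on each of the 8 arrays, with PNY as filled circles and SHAM as open squares against time after surgery, 1 array of 8 pooled mice a point, no error bars and a vertical axis of its own in each panel. In Cdk1, Mki67, Dtl, Eln and Tnc the PNY line climbs to its highest point at 7 days, whereas Clca1 is above SHAM at all 4 times and Scgb3a1 differs mainly at 7 days.

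Some matrix genes were higher in PNY, with list medians below that of the mitosis list, and most members of each matrix list did not pass 1.5-fold. The list of fibrillar collagens and their processing also holds other collagens. Of its 26 genes 5 were at least 1.5-fold higher and none lower, and the median of 0.41 at 7 days followed 0.32 at 3 days. Col15a1, a collagen next to basement membranes, was 7.90 in PNY and 6.95 in SHAM at 7 days, and between 6.62 and 7.24 on the other 6 arrays. Col1a1 and Col5a1, chains of fibrillar collagens, differed by 0.61 each, Col14a1 by 0.60 and P4ha3, a prolyl hydroxylase of collagen, by 0.91. A dimmer probe set of Col1a1 differed by 0.07. The fibrillar chains Col5a2 (0.58), Col3a1 (0.55) and Col1a2 (0.35) did not pass 1.5-fold.

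Eln, the elastin gene, was 12.45 in PNY and 11.43 in SHAM at 7 days. The values were 11.74 and 11.04 at 3 days, 11.32 and 10.87 at 1 day, and 11.03 and 10.61 at 6 hours, so PNY was above SHAM at every time and the 7-day PNY array was the highest of the 8. Lox, the enzyme that crosslinks elastin and collagen, differed by 0.66, and Mfap5, a microfibril protein, by 0.59. The 2 further probe sets of Lox differed by 0.22 and 0.47, the brighter at a mean level of 10.16 against 10.25. In all, 3 of 17 elastic fibre genes were at least 1.5-fold higher. Among matricellular proteins 4 of 15 were higher, led by Tnc (tenascin C, a protein of growing and healing tissue), which was 7.99 against 6.34 at 7 days and 7.15 against 5.18 at 3 days. Cilp differed by 0.96, Ccn4 by 0.70 and Ccn2 (connective tissue growth factor) by 0.66. All 19 basement membrane genes were above 0 at 7 days, with 2 of them, Lama1 (0.83) and Col4a5 (0.63), at least 1.5-fold higher.

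Other matrix genes went both ways. Aspn (asporin), a small proteoglycan of fibroblasts, was 8.82 in PNY and 7.63 in SHAM at 7 days and between 6.94 and 7.84 on the other 6 arrays. Vcan (versican) differed by 0.75, with 7 further probe sets between -0.18 and 0.48. Sdc4 (syndecan 4), a heparan sulfate proteoglycan of the cell surface, was 8.88 against 9.90 at 7 days, whereas PNY was above SHAM at 3 days (10.09 against 9.22). Mmp2, a gelatinase of mesenchymal cells, differed by 0.71 and Adamts9 by 0.67, while Mmp9, the gelatinase of neutrophils, was lower by 1.04 and is taken up with the neutrophil genes. Adamts9 has 2 further probe sets, at differences of -0.04 and 0.36.

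In the IGF pathway, in which binding proteins hold the ligand and proteases release it, 4 of 16 genes were higher and 1 lower. Igf1, the ligand, was 9.43 in PNY and 8.59 in SHAM at 7 days, and 9.10 and 8.13 at 3 days. Igfbp2, a binding protein also made by alveolar type I cells, was 11.92 and 11.11, and Pappa2, a protease of binding proteins, 5.47 and 4.33. The other higher gene was Stc2, at 6.51 in PNY and 5.90 in SHAM, its lowest value of the 8 arrays. The 2 further probe sets of Stc2 differed by -0.005 and 0.08. Igfbp3, another binding protein, was 9.004 in PNY and 10.03 in SHAM at 7 days and 8.999 and 9.88 at 3 days. The ligand and 1 of its binding proteins thus lay on opposite sides at 3 and at 7 days. No gene of the 26 EGF and FGF ligands and receptors differed by 1.5-fold. Of 44 genes of Wnt, BMP, TGF-beta and Notch signalling 2 were higher, Lgr6 (0.80) and Wnt5a (0.63), beside 1.98% of all genes. None of the 44 was lower, and this small count was not tested. In Lgr6 the PNY value (6.30) lay inside the range of the other arrays and the SHAM value (5.51) below it.

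Some goblet cell genes were higher, while the club cell, alveolar and ciliated lists had medians near 0. Clca1, a secreted protein of goblet cells, was 8.58 in PNY and 5.51 in SHAM at 7 days. It was 9.25 and 5.20 at 3 days, 7.00 and 5.72 at 1 day, and 8.10 and 5.74 at 6 hours. The SHAM values lay together and every PNY value lay above them. A dim second probe set (mean level 2.82) differed by 0.05. Of 17 goblet cell and mucus genes 6 were at least 1.5-fold higher and none lower. Besides Clca1 these were Bpifb1 (1.13), Agr2, which folds mucins (0.96), Tff2, a trefoil peptide (0.80), Retnlb (0.71) and the mucin Muc5b (0.62). The other 11 differed by less, among them Muc5ac (0.24) and Spdef (0.05), and 3 lay below 0. Muc5b was 8.43 in PNY of 7 days, below its 8.86 in PNY of 6 hours. Of 15 club cell genes Scgb3a1, a secretoglobin, was at least 1.5-fold higher (13.02 against 12.27). The club cell list had a median of -0.05 with 11 of its 15 members below 0, among them Cyp4b1 (-0.35) and Cyp2f2 (-0.13), enzymes of these cells. Reg3g, an antibacterial lectin of mucosa, was 10.36 against 8.92, and Ltf (lactoferrin) differed by 0.85. In Bpifb1, Scgb3a1 and Ltf the PNY array of 7 days was the highest of the 8 and the SHAM array of 7 days the lowest. In Retnlb the SHAM array of 7 days was the lowest, while the PNY array was not the highest.

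None of 20 surfactant and alveolar type II genes and none of 22 motile cilia genes differed by 1.5-fold, with medians of 0.08 and -0.06. The alveolar type I list had a median of 0.20 with Igfbp2 as its member past 1.5-fold. None of 20 pan-endothelial genes differed by 1.5-fold, and of 20 capillary genes Esm1, a proteoglycan of endothelial tip cells, did (7.73 in PNY and 8.58 in SHAM). Esm1 was also lower at 3 days (7.78 against 8.75). Mean levels of cell type lists do not count cells.

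Higher and lower genes differed in which array stood out. Of the 206 lower genes above the median level, 95 had their lowest value of the 8 arrays in PNY of 7 days, 54 their highest in SHAM of 7 days, 24 both and 33 neither. Of the 188 higher genes 142 had their highest value in PNY of 7 days, 25 their lowest in SHAM of 7 days, 15 both and 6 neither. The higher genes thus rested mainly on the PNY array, and the lower genes in part on the SHAM array. How often any gene has an extreme value on a 7-day array was not counted. Such counts in the gene lists, above and below, therefore stand without a background.

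Of 17 neutrophil genes 8 were at least 1.5-fold lower in PNY and 2 higher, beside 1.48% of all genes lower, and 9 had their lowest value of the 8 arrays in PNY of 7 days. The mean level of the list was 7.94 in PNY and 8.42 in SHAM at 7 days, 8.30 and 8.14 at 3 days, 8.36 and 8.14 at 1 day, and 9.09 and 8.95 at 6 hours. PNY of 7 days thus lay below the other arrays, and SHAM of 7 days above those of 1 and 3 days. Against the SHAM array of 3 days the median of the list was -0.22 in place of -0.55. S100a8, a subunit of calprotectin, was 10.85 in PNY and 12.61 in SHAM at 7 days. It was 11.78 and 11.65 at 3 days, 12.80 and 12.61 at 1 day, and 13.24 and 13.14 at 6 hours. S100a9, its partner, was 10.12 and 11.86 at 7 days. The arrays of the same time lay close together at 6 hours, 1 day and 3 days, and only those of 7 days lay apart. Clec4d, a receptor of myeloid cells, differed by -1.27, Mmp9 by -1.04, Csf3r, the receptor for granulocyte colony-stimulating factor, by -0.93 and Stfa2l1, a stefin outside the list, by -1.78. The 2 members that were higher, Ptx3 (1.40) and Ltf (0.85), are also made outside neutrophils, Ptx3 by stromal and endothelial cells and Ltf by airway glands. A dimmer probe set of Ptx3 differed by 0.24.

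Platelet genes were likewise lowest on the PNY array. Of 14 members 7 were at least 1.5-fold lower and none higher, and 12 had their lowest value of all 8 arrays in PNY of 7 days. Ppbp, a chemokine of platelet granules, was 7.84 in PNY and 8.97 in SHAM at 7 days and between 8.72 and 9.36 on the other 6 arrays. Clec1b, a platelet receptor, differed by -0.78, Tubb1, the tubulin of platelets, by -0.71 and Gp5 by -0.63. Gp1bb differed by -1.14, with a dimmer probe set at 0.30. Alas2, the heme enzyme of red cell precursors, was 7.30 against 8.70, but the erythroid list had a median of 0.09. Platelet and neutrophil genes are both carried by cells of the blood, and how far perfusion cleared the vessels was not tested.

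**Figure D4:**
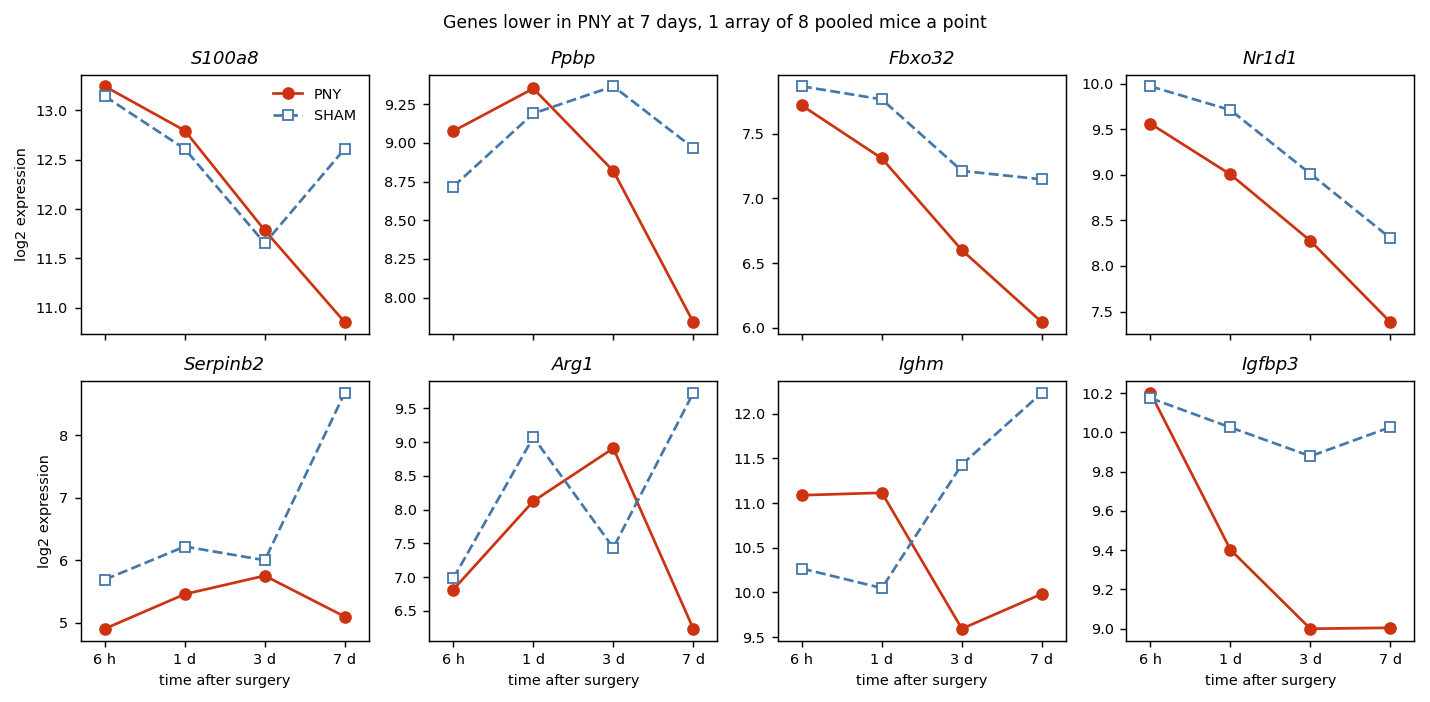
log2 expression of 8 genes that were lower in PNY at 7 days on each of the 8 arrays, with PNY as filled circles and SHAM as open squares against time after surgery, 1 array of 8 pooled mice a point, no error bars and a vertical axis of its own in each panel. S100a8, Ppbp, Fbxo32 and Nr1d1 reach their lowest value in PNY of 7 days, whereas Serpinb2, Arg1 and Ighm reach their highest value in SHAM of 7 days and Igfbp3 is lower in PNY from 1 day on.

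Serosal macrophage genes are genes of the resident macrophages of the pleural and peritoneal cavities. Of 24 members 12 were at least 1.5-fold lower in PNY and none higher, and 13 had their highest value of all 8 arrays in SHAM of 7 days. Serpinb2, a plasminogen activator inhibitor of these cells, was 5.10 in PNY and 8.68 in SHAM at 7 days, and between 4.91 and 6.22 on the other 6 arrays. PNY thus lay inside the range of the other arrays and SHAM above it. Alox15, a lipoxygenase, was 5.63 and 8.04, Cd5l, a secreted scavenger protein of macrophages, 6.25 and 8.72, and Prg4 (lubricin) 6.54 and 8.93. F5, coagulation factor V, was 5.62 and 7.16, and Fcna, a ficolin outside the list, 6.71 and 8.17.

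Arg1 (arginase 1), a gene of serosal and of alternatively activated macrophages, was 6.24 in PNY and 9.73 in SHAM at 7 days. At 3 days the order was turned, with 8.91 in PNY and 7.43 in SHAM. The other values were 8.12 and 9.07 at 1 day, and 6.82 and 6.98 at 6 hours. The list is not uniform, for Gata6, the transcription factor of these macrophages that lung cells also express, was 9.56 and 9.55, and Icam2, which endothelium also expresses, was 11.38 and 11.32. Itgam, an integrin of myeloid cells, was 6.63 and 8.00. The list of monocytes and interstitial macrophages had a median of -0.18, and that of alveolar macrophages a median of -0.05 with no member past 1.5-fold. Against the mean of the 4 SHAM arrays the serosal list had a median of -0.11 in place of -0.53.

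Genes of type 2 immunity, the response of macrophages and epithelium to interleukin 4 and 13, were on both sides. Of 24 members 2 were at least 1.5-fold higher, Chil4, a chitinase-like protein (1.11), and Retnla, a secreted resistin-like protein of macrophages and epithelium (0.78). Retnla was 12.91 in PNY and 12.14 in SHAM at 7 days, and 13.25 and 11.80 at 3 days. The 4 that were lower were Arg1, Alox15, the eosinophil chemokine Ccl24 (-0.75) and the basophil protease Mcpt8 (-0.59). Members of 1 list thus lay on opposite sides on the same arrays. Among 30 chemokines and cytokines Ccl8, a chemokine for monocytes, was higher (8.08 against 6.77) and Cxcl13, a chemokine for B cells that serosal macrophages make, was lower (6.96 against 7.62). Of 24 interferon-stimulated genes Oas3 was lower (-0.63), and Slfn4, a myeloid gene outside these lists, was 6.41 against 7.90.

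Of 19 B cell genes 11 were at least 1.5-fold lower and none higher, with a median of -0.61, and 17 of the 19 had their lowest difference of the 4 times at 7 days, beside 29.9% of all genes. Cd79a, a signalling chain of the B cell receptor, was 9.16 in PNY and 9.97 in SHAM at 7 days, Ms4a1 (CD20) 8.73 and 9.49, and Cxcr5, the follicle-homing receptor, 6.65 and 7.45. Ighm, the heavy chain of IgM, was 9.98 and 12.23 at 7 days, 9.59 and 11.43 at 3 days, 11.11 and 10.05 at 1 day, and 11.09 and 10.27 at 6 hours. Its values swung widely and changed side between 1 and 3 days. The 10 other probe sets of Ighm differed by between -1.53 and 0.46 at 7 days, with 5 of them below 0 and 1 past 1.5-fold, and the next brightest had a mean level of 10.53 against 10.72, so the size of this difference depends on the probe set read. Jchain, the joining chain of secreted IgM and IgA, was 8.09 and 9.68. Of 15 immunoglobulin and plasma cell genes 6 were at least 1.5-fold lower and 9 differed by less, with a median of -0.21. Among the 9 were the heavy chain genes Igha (0.07) and Ighg3 (-0.09). The kappa variable gene Igkv9-120 (-1.48) belongs to a family of near-identical members, among which probe sets may not tell one from another. Against the mean of the 4 SHAM arrays the B cell list had a median of -0.24.

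Of 19 mature T cell genes 6 were at least 1.5-fold lower and none higher, among them Cd3d (-0.80), Cd3g (-0.74) and Cd3e (-0.68) of the T cell receptor complex and Il7r (-0.69). The NK and cytotoxic list had a median of -0.35 with no member past 1.5-fold. Of 19 thymocyte genes Cd8b1, Ccr9 and Satb1 were lower, and all 3 were far higher on the PNY array of 1 day than on any other (Ccr9 at 8.86 there, and between 4.51 and 5.66 on the other 7). Rag1, a recombination gene of developing lymphocytes, was 2.88 in PNY and 3.21 in SHAM at 7 days, and 9.60 in PNY of 1 day.

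Genes of clock and hormone responses were lower in a few members. Of 19 circadian clock genes Nr1d1 and Nr1d2, the nuclear receptors that repress the clock's activators, were at least 1.5-fold lower. Nr1d1 was 7.38 in PNY and 8.31 in SHAM at 7 days, 8.28 and 9.01 at 3 days, 9.004 and 9.71 at 1 day, and 9.56 and 9.97 at 6 hours. PNY was below SHAM at all 4 times, and in both groups the value was lower at each later time. Among 26 genes that glucocorticoids induce Fbxo32, a ubiquitin ligase (-1.10), Klf15, a metabolic transcription factor (-0.90), and Arrdc2 (-0.71) were lower, and the others did not differ by 1.5-fold. Fbxo32 was 6.04 in PNY and 7.15 in SHAM, with 2 further probe sets between -0.37 and -0.32. The median of the glucocorticoid list was -0.05.

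In some of the largest single differences the probe sets of a gene differed in size. Rpl27a, a ribosomal protein gene, was 6.59 in PNY and 8.53 in SHAM, while its other probe set (mean level 3.68) differed by 0.23. Malat1, a nuclear noncoding RNA chosen after its values were seen, has 7 probe sets, all lower in PNY, with differences from -0.26 to -3.01, and 5 of the 7 are past 1.5-fold. For these genes the size of the difference depends on which probe set is read.

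Striated muscle genes were set apart, since lung lists do not contain them. Of 89 genes of the skeletal and cardiac lists together 28 passed 1.5-fold above SHAM and none below it, and without them 332 of 18104 genes were higher. The skeletal and shared list had 19 of 56 higher with a median of 0.44, and the cardiac and atrial list 9 of 33 with a median of 0.37. Medians at 3 days were 0.01 and -0.03.

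Several fast skeletal genes had their highest value on the PNY array, but over the list a low SHAM array was more frequent. Of the 56 skeletal and shared genes 15 had their highest value of the 8 arrays in PNY of 7 days and 25 their lowest in SHAM of 7 days. The mean level of the list was 6.10 in PNY and 5.53 in SHAM at 7 days, and between 5.84 and 5.99 on the other 6 arrays. Its median of 0.44 became 0.13 against the mean of the 4 SHAM arrays and 0.10 against SHAM of 3 days. Acta1, skeletal actin, was 8.17 in PNY and 5.96 in SHAM at 7 days, and between 5.90 and 7.47 on the other 6 arrays. Tnnc2 and Tnnt3, troponins of fast fibres, were 7.28 and 4.60, and 6.73 and 4.51. Myl1, a myosin light chain, was 7.84 and 5.61. In Acta1, Tnnc2 and Tnnt3 the next highest value was that of SHAM at 1 day, at 7.47, 6.53 and 5.46. Of other genes of skeletal fibres Myh4 differed by -0.03 and Myh1 by -0.30, but both were dim on all 8 arrays. Myh4 lay between 2.58 and 2.88 and Myh1 between 4.16 and 4.80, so they do not show whether such genes followed. The mean levels of Myh4, Myh1, Tnnc2 and Tnnt3 were all below the median.

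Most cardiac genes were lowest on the SHAM array. Nppa, atrial natriuretic peptide, was 7.74 in PNY and 5.52 in SHAM at 7 days, 8.16 and 7.69 at 3 days, 8.31 and 7.94 at 1 day, and 6.79 and 6.76 at 6 hours. The PNY value lay inside the range of the other arrays and the SHAM value below it. Sln (sarcolipin), a calcium pump regulator of the atria, was 8.45 and 7.45, Myh6, the alpha myosin heavy chain, 7.52 and 6.60, and Myl4, the atrial light chain, 9.46 and 8.69. Of the 33 cardiac genes 20 had their lowest value of all 8 arrays in SHAM of 7 days. Against the SHAM array of 3 days the cardiac list had a median of -0.01, and Sln, Myh6 and Myl4 were lower in PNY. Pulmonary veins of mice carry a sleeve of cardiac muscle, and how much vein, heart or chest wall went with each pool was not tested.

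**Figure D5:**
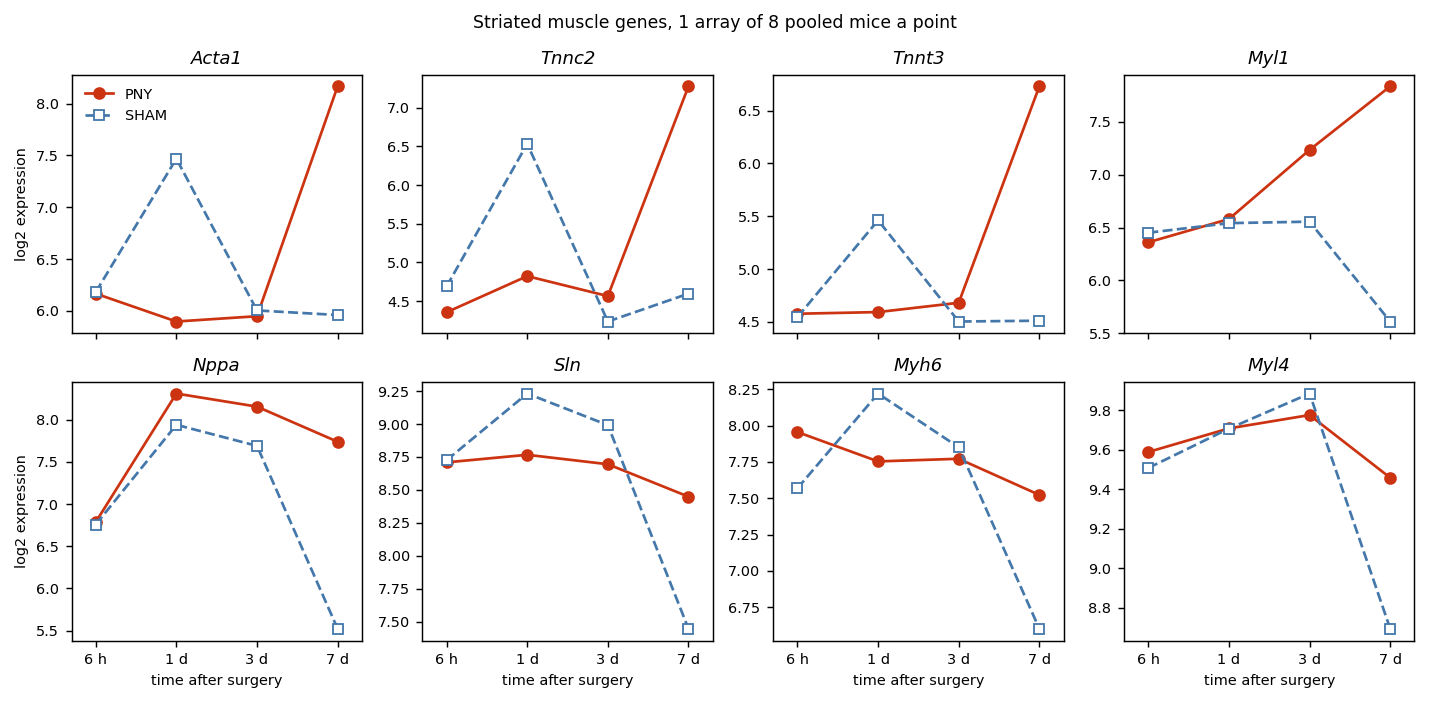
log2 expression of 8 striated muscle genes on each of the 8 arrays, with PNY as filled circles and SHAM as open squares against time after surgery, 1 array of 8 pooled mice a point, no error bars and a vertical axis of its own in each panel. The skeletal genes of the upper row are highest in PNY of 7 days, and the cardiac genes of the lower row are lowest in SHAM of 7 days.

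Adipocyte genes, which also mark tissue around the lung, had a median of 0.04. Adipoq was 6.83 and 6.23, and its highest value was 8.47 in PNY of 6 hours. Mesothelial genes had a median of -0.24, with Wt1, a transcription factor of mesothelium, at 6.83 in PNY and 7.79 in SHAM, whereas Upk3b was 1.27-fold lower and Msln 1.03-fold higher. The part of attached tissue in any lung gene above was not tested.

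The 7-day differences overlapped most with those of 3 days. Of the 188 higher genes above the median level, 80 were also at least 1.5-fold higher at 3 days, which is 42.6% of the 7-day genes and 65.6% of the 122 genes higher at 3 days. With 1 day 20 genes were shared (10.6% and 11.8%), and with 6 hours 12 (6.38% and 14.6%). Of the 206 lower genes 16 were also lower at 3 days (7.77% and 30.8%), 7 at 1 day and 9 at 6 hours. The 7-day difference was the largest of the 4 in size for 166 of the 188 and 185 of the 206. These genes were chosen by their 7-day difference, which favours such counts, so the counts do not show that a change was particular to 7 days. Above the median level 122 genes were higher and 52 lower at 3 days among 12151, so the lists compared differ in size, and the overlaps were not tested.

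The 4 differences between PNY and SHAM allow 1 test across times, of the 7-day difference against the mean of the other 3 (limma, 2 residual degrees of freedom, Benjamini-Hochberg over 45037 probe sets). The 7-day side of this test is a single difference, and all of the spread comes from the differences at 6 hours, 1 day and 3 days, which are not replicates of each other. No probe set passed an adjusted p of 0.05 in limma, with 1320 above (2.93%) and 1386 below (3.08%) at an unadjusted p under 0.05. The smallest adjusted p was 0.331, which Serpinb2, S100a8 and Nppa shared. With a trended and robust prior 1 probe set was above, Nppa (adjusted p = 0.0453 in limma), and 6 below, among them S100a8 (adjusted p = 0.000334) and Serpinb2 (adjusted p = 0.0119). The 7-day differences of Clca1, Igf1 and Tnc (unadjusted p = 0.586, 0.389 and 0.338 in limma) exceeded the mean of the other times by 0.50 ± 0.88, 0.29 ± 0.31 and 0.68 ± 0.66 (SE).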

How the data were processed

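RNA of lungs pooled from 8 mice was measured on 8 arrays (Affymetrix mouse genome arrays), 1 for each surgery and time. The authors made the deposited log2 values with RMA (background correction, quantile normalization over the arrays, 1 value per probe set; version not given in the sources used here). The number of arrays limits the precision, and no value measures the spread between mice. Array medians lay between 5.90 and 5.95.

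Of 45101 probe sets 64 controls were left out. A single gene symbol is carried by 34945, several by 932 and none by 9160; 34741 of the first were found in the RefSeq gene table. Where a gene has several, the one that is brightest on average stands for it, which left 18193 genes. PNY minus SHAM at 7 days was computed with no test and counted past 1.5-fold. The 7-day difference was set against the mean of the other 3 with limma 3.58.1 in R 4.3.3, after the fit was tested on simulated data. Time point is the block in that fit, since a pair of arrays was taken at each time. Tables and figures were made in Python 3.11.15 with numpy 2.4.6, pandas 2.3.3 and matplotlib 3.10.9. Probe-level values were not used here.

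Of 1240 entries in 53 gene lists 89 have no measured gene by this rule. The comparison, lists and named genes were chosen with earlier results of these data known, so the lists are not independent evidence. Named genes are, above the median level and outside the striated muscle lists, the 15 furthest above and below SHAM; the 5 furthest either way in the muscle lists; up to 6 members of each list past 1.5-fold (the 2 largest where there were none); and 7 genes that the study names at 7 days, of which Ccnb1 was not analysed here. The genes named by list include some below the median level. Among these are Cenpf, Tpx2, Exo1, Ccne2, Dtl, Rad51ap1, Brca1, Chek1, P4ha3, Lama1, Pappa2, Agr2, Retnlb, Chil4, Mcpt8, F5, Ccr9, Tnnc2 and Tnnt3. Promoters are those of RefSeq (GRCm38.p6). The alternatives were centring of arrays, a second quantile normalization, leaving out genes below the median level, averaging of probe sets within genes, 2-fold, other SHAM arrays, leaving out the muscle lists and, for limma, no pairing, a trended and robust prior and leaving out each other time; the PNY array of 7 days against SHAM of 3 days was added after seeing the data.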

Additional observations from a re-analysis of the deposited data

Results flagged for a closer look

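In 10 named genes past 1.5-fold the difference of PNY to SHAM at 7 days had the opposite sign to that at each of the other 3 times; with 1 array per group and time this turn was not tested. Below SHAM at 7 days and above it at the other times were S100a8 (-1.76), S100a9 (-1.75), Mmp9 (-1.04), Sdc4 (-1.02), Wt1 (-0.96) and Ccr9 (-0.66). Above SHAM at 7 days and below it at the other times were Acta1 (2.21), Mb (1.29), Sln (1.00) and Mybphl (0.70), all 4 from the striated muscle lists.

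The probe sets without a single gene symbol entered no comparison of genes. Above the median level, 16 of them were at least 1.5-fold higher in PNY at 7 days and 74 were lower.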

How the results depend on the processing

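Against the 360 genes higher and 269 lower in PNY, the counts were 120 and 56 at 2-fold, with 68.2% of them higher in place of 57.2%, and 188 higher above the median level; no other alternative moved these counts by over 1.5 times. In limma the counts of 0 above and 0 below became 1 and 6 with a trended and robust prior, 1320 and 1386 at an unadjusted p under 0.05, and, leaving out each other time in turn, from 0 to 6 above and from 0 to 14 below, both highest counts without 1 day. Without the pairing by time (no replicate block) the counts were 0 and 0, with 485 and 363 at an unadjusted p under 0.05, so the block changed no call.

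With the mean of all probe sets of a gene the mitosis median was 1.11. Against the mean of the 4 SHAM arrays the medians were -0.11 for serosal macrophages, -0.24 for B cells and 0.13 for skeletal muscle. Against SHAM of 3 days they were -0.22 for serosal macrophages, -0.22 for neutrophils, 0.10 for skeletal and -0.014 for cardiac muscle. Of 146 named genes past 1.5-fold, none changed sign under centring, quantile normalization or the mean of probe sets. Keeping their sign, 3 fell below 1.5-fold with quantile normalization, 25 with the mean of probe sets, 40 against the mean of the 4 SHAM arrays and 39 against SHAM of 3 days. Against the mean of the 4 SHAM arrays 7 changed sign, Adipoq (-0.18), Bpifa1 (-0.0090), Mybphl (-0.040), Myh6 (-0.037), Pln (-0.42), Serpina3n (-0.038) and Sln (-0.15). Against SHAM of 3 days 9 changed sign, Adipoq (-0.73), Bpifa1 (-0.82), Car3 (-0.34), Mb (-0.064), Mybphl (-0.47), Myh6 (-0.33), Myl4 (-0.43), Pln (-1.24) and Sln (-0.54). The cause was not tested.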
